A study of Homo sapiens with 8 samples.

Results

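Gluconeogenesis, the synthesis of glucose from lactate, amino acids and glycerol, was followed in HepaRG cells through 8 genes. PCK1, PCK2, G6PC1, FBP1, PC and SLC37A4 carry out or serve steps of the pathway, and PPARGC1A and FOXO1 regulate it. The genes were picked by name from the gene table, and all 8 were found among its 62703 genes. HepaRG is a hepatic line of human origin, and its differentiated cultures hold hepatocyte-like cells beside other, less hepatic cells. The cells were exposed to a chemical for 24 h, dissociated and fixed, and the RNA of single cells was counted with the Parse Evercode method, which marks each cell by rounds of barcoding and each molecule by a unique molecular identifier (UMI).

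The treatments were rotenone (0.2 and 0.4 µM), an inhibitor of complex I of the respiratory chain; cycloheximide (0.2, 2 and 20 µM), an inhibitor of protein synthesis; tunicamycin (0.001, 0.01 and 0.1 µM), an inhibitor of N-linked glycosylation; and brefeldin A (0.001, 0.01 and 0.1 µM), which blocks transport from the endoplasmic reticulum (ER) to the Golgi. Etoposide (0.25, 2.5 and 25 µM), a topoisomerase II inhibitor, tert-butylhydroquinone (tBHQ; 3, 30 and 300 µM), an activator of NRF2, and troglitazone (50 µM in the cell table), a PPARγ agonist, were also used. Medium alone and the vehicle dimethyl sulfoxide (DMSO) were the untreated conditions, and every dissolved chemical was given in the same final share of DMSO. All cultures were of this line and were plated in the same way. The 8 deposited samples are sublibraries, which are aliquots of 1 pool of barcoded cells, and the treatment of each cell came from the sample name in the cell table.

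In hepatocytes, pyruvate carboxylase (PC) makes oxaloacetate in the mitochondrion, and the phosphoenolpyruvate carboxykinases PCK1 (cytosolic) and PCK2 (mitochondrial) turn it into phosphoenolpyruvate. Fructose-1,6-bisphosphatase (FBP1) and the glucose-6-phosphatase catalytic subunit (G6PC1) carry out the last irreversible steps, and SLC37A4 carries glucose-6-phosphate into the ER, where G6PC1 acts. Glucagon, through cyclic AMP and CREB, raises PCK1, G6PC1 and PPARGC1A, whose product PGC-1α is a transcriptional coactivator. Insulin, through AKT, keeps the transcription factor FOXO1 out of the nucleus and so lowers PCK1 and G6PC1.

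In all 1002686268 UMIs were counted in 12976 cells. A cell was kept if it had 500 genes or more and no more than 20% of its UMIs from mitochondrially encoded genes. Kept cells were added up by sample name, called a culture here, and 38 of 47 cultures had 30 kept cells or more. These cultures held 37 to 1434 cells and 1741603 to 97081214 UMIs, and levels are given per 1000000 UMIs of the culture (CPM). The study describes its main data, from another single-cell method (TempO-LINC), as one HepaRG culture without biological replication within a condition. Whether this holds for the Parse data used here is not stated. What the run number of a sample name stands for is given nowhere in the sources. The word culture therefore stands only for the cells of 1 sample name, and p-values measure only the spread between these, which may be technical. The median kept cell held 184833 UMIs at 0.2 µM rotenone and 184485 (run 5) and 45112.5 (run 6) at 0.4 µM, against 17080 to 79381 in the 4 DMSO cultures. The DMSO culture of run 1, with 2 kept cells, was not used. Of 12063 barcode combinations, 822 occurred in more than 1 sublibrary (1735 cells), and no doublets were removed. All treatments were compared with the same 4 DMSO cultures.

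The members lie on 7 chromosomes in GENCODE 44 (GRCh38), and all are annotated as protein-coding. PCK1 (ENSG00000124253) spans 57561080 to 57568121 on the plus strand of chromosome 20. PCK2 (ENSG00000100889) spans 24094053 to 24110598 on the plus strand of chromosome 14. G6PC1 (ENSG00000131482) spans 42900797 to 42914438 on the plus strand of chromosome 17. FBP1 (ENSG00000165140) spans 94603133 to 94640249 on the minus strand of chromosome 9. Chromosome 11 holds PC (ENSG00000173599; 66848417 to 66958386) and SLC37A4 (ENSG00000137700; 119023751 to 119030906), both on the minus strand. PPARGC1A (ENSG00000109819) spans 23755041 to 23904089 on the minus strand of chromosome 4, and FOXO1 (ENSG00000150907) spans 40555667 to 40666641 on the minus strand of chromosome 13. PC, PPARGC1A and FOXO1 are long genes, of 109970, 149049 and 110975 bp, and PCK1 and SLC37A4 are short, of 7042 and 7156 bp.

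G6PC1 and SLC37A4 serve the same ER step but responded differently to 0.4 µM rotenone, so the 250 bases before a start of each are shown. They come from RefSeq (GRCh38.p14), which had promoter entries for 7 of the 8 members (11 entries, as some genes have several starts). The windows are chr17:42900549-42900798 on the plus strand for G6PC1 and chr11:119030878-119031127 on the minus strand for SLC37A4. Capitals mark matches to the motifs searched, on either strand.
G6PC1: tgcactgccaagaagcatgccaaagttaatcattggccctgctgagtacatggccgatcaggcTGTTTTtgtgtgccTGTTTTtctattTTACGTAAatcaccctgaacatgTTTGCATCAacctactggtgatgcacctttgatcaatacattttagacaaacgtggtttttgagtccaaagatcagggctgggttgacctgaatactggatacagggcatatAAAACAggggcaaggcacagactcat
SLC37A4: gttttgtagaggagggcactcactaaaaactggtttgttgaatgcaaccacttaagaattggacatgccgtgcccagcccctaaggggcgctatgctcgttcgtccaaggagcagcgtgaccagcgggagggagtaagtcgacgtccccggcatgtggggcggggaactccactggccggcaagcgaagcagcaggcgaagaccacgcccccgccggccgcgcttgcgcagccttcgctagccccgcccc

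The motifs were a cyclic AMP response element type (TNACGTNA), a FOXO core (GTAAACA), an insulin response core (TGTTTT) and an ATF4 and C/EBP composite type (TGATGNAAN). In the G6PC1 window the insulin response core began 187, 173 and 26 bases before the start, the cyclic AMP type 161 bases and the composite type 138 bases before it. None of the motifs overlapped there. The SLC37A4 window shown held none of them, and the window of its other start held 1 insulin response core. Among 35114 promoter windows of the same length, 17.3% held the insulin response core, 4.10% the cyclic AMP type, 3.13% the composite type and 2.98% the FOXO core. The FOXO core was in no window of a member. A match is a description of letters and not a site at which a factor was shown to bind.

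In DMSO-treated cells the RNAs of G6PC1 and PCK1 were held by few cells, whereas those of PC, PPARGC1A and FOXO1 were spread over most. PCK1 UMIs were in 13 of 250, 2 of 127, 27 of 311 and 4 of 93 cells of the 4 DMSO cultures, and the 10 highest cells held 96.0%, 100%, 79.6% and 100% of them. In the DMSO culture of run 5, the highest 5% of cells (16 of 311) held 92.6% of PCK1 UMIs and 68.3% of G6PC1 UMIs. The same share of cells held 28.6% of PCK2 UMIs, 25.1% of PC UMIs, 24.1% of SLC37A4 UMIs, 22.1% of PPARGC1A UMIs and 23.0% of FOXO1 UMIs. A PCK1 level of a culture therefore rests on a handful of cells.

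**Figure D1:**
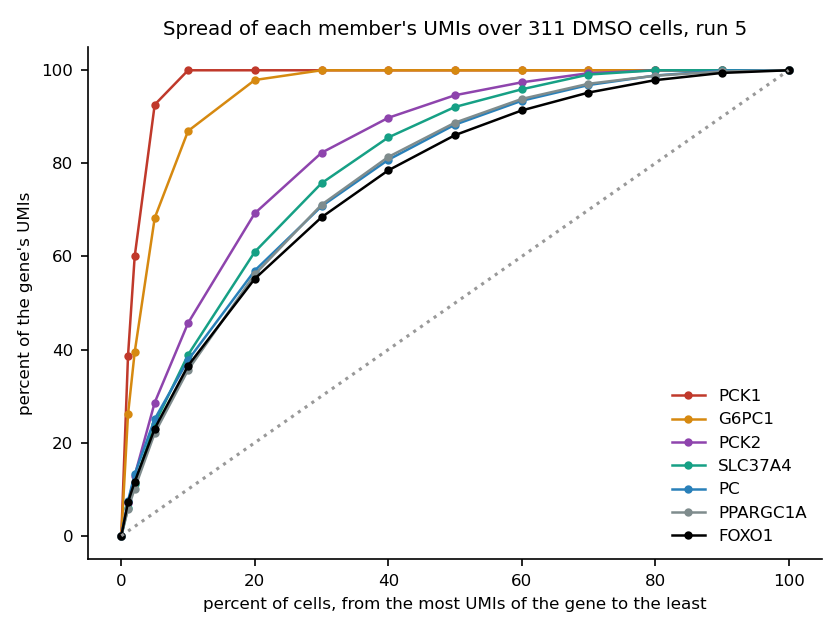
Percent of a gene's UMIs (y axis) held by a given percent of cells, ranked from the highest count for that gene (x axis), in the 311 kept cells of the DMSO culture of run 5. The PCK1 and G6PC1 curves rise steeply, to 92.6% and 68.3% at 5% of cells, and the curves of the other members shown are shallower.

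Since cells differed in depth, each was thinned to 5000 UMIs before shares of cells with at least 1 UMI were compared. Over the 4 DMSO cultures these shares were 2.17% ± 1.01 for PCK1, 4.15% ± 0.808 for G6PC1, 8.60% ± 4.56 for SLC37A4, 13.9% ± 3.56 for PCK2, 32.1% ± 7.41 for PC, 69.5% ± 3.19 for PPARGC1A and 84.1% ± 4.52 for FOXO1 (SD, n = 4 cultures). Without thinning they were 4.94% ± 2.93 for PCK1, 14.3% ± 6.69 for G6PC1, 46.1% ± 21.2 for SLC37A4, 55.6% ± 13.6 for PCK2, 76.2% ± 10.9 for PC, 93.0% ± 3.60 for PPARGC1A and 98.9% ± 0.332 for FOXO1. A cell counted as having none may still express the gene, and a summed level does not tell fewer expressing cells from less RNA per cell.

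The DMSO cells of each culture were ranked by their share of hepatocyte marker RNA (ALB, APOB, HNF4A, ARG1, TTR, SERPINA1, APOA1 and TF) and cut into 4 bins of equal size, which are ranges of a score and not cell types. G6PC1, PCK1, PCK2 and SLC37A4 were higher in the highest bin than in the lowest in all 4 cultures, with no overlap of the ranges. G6PC1 averaged 43.0 ± 18.6 CPM in the highest bin, against 0.100 ± 0.201 CPM in the lowest (SD, n = 4 cultures). PCK1 averaged 14.2 ± 8.80 CPM in the highest bin, against 0.100 ± 0.201 CPM in the lowest, where only 2 UMIs were counted. PCK2 averaged 76.7 ± 20.7 CPM in the highest bin and 19.9 ± 3.84 CPM in the lowest. SLC37A4 averaged 30.9 ± 9.23 CPM in the highest bin and 6.19 ± 4.09 CPM in the lowest. After thinning, 25 of 193 cells of the highest bin had a G6PC1 UMI (13.0%, exact 95% interval 8.56 to 18.5), against 0 of 197 cells of the lowest (upper bound 1.86%). The unthinned shares were 43.0% and 1.02%, at medians of 45841 and 21826 UMIs per cell.

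PC and the regulators did not follow hepatocyte marker RNA in this way. PC averaged 90.5 ± 35.1 CPM in the highest bin and 111 ± 24.5 CPM in the lowest, with overlapping ranges. FOXO1 ran the other way, at 330 ± 92.3 CPM in the highest bin and 657 ± 49.3 CPM in the lowest, with no overlap (256 to 465 against 600 to 716 CPM). PPARGC1A was higher in the middle bins (397 ± 60.3 and 389 ± 68.5 CPM) than in the highest (258 ± 59.7 CPM) and the lowest (288 ± 52.9 CPM). Cells low in hepatocyte RNA thus carried FOXO1, PPARGC1A and PC RNA and were near 0 for G6PC1 and PCK1.

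**Figure D2:**
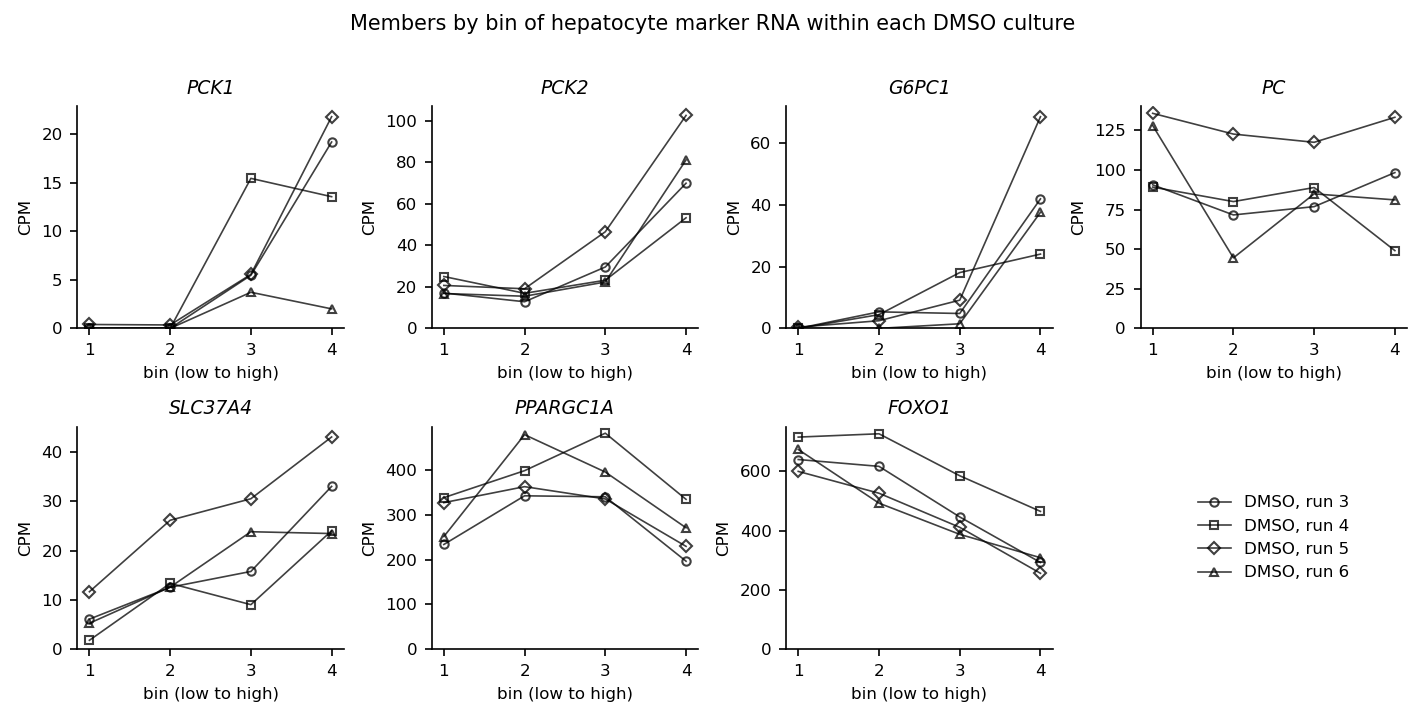
CPM of 7 members (y axis, own scale per panel) in 4 bins of DMSO cells ranked by hepatocyte marker RNA (x axis, lowest to highest), with a line for each of the 4 DMSO cultures. G6PC1, PCK1, PCK2 and SLC37A4 were higher in the highest bin than in the lowest, FOXO1 was lower (330 against 657 CPM on average), and PC overlapped.

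Over the treatments, 3 conditions stood apart for the members: 0.2 µM rotenone, 0.4 µM rotenone and 20 µM cycloheximide. G6PC1, PCK1 and PC were below every DMSO culture in all 5 cultures of these conditions. G6PC1 ranged there between 0 and 0.928 CPM, against 12.0 to 18.6 CPM in DMSO cultures. In the 29 cultures of the other treatments and medium, most levels lay within the DMSO range: 25 for FOXO1, 25 for SLC37A4, 21 for PC, 21 for PCK2, 17 for PPARGC1A and 17 for PCK1. PCK1 lay below the DMSO range in 9 of the 29 and above it in 3. Low PCK1 was thus not limited to the 3 conditions: it was at 0 CPM at 0.01 µM tunicamycin in run 4. In medium of run 6 it was at 0.648 CPM (3 UMIs). G6PC1 lay below the DMSO range in 18 of the 29, within it in 8 and above it in 3, and 3 of the 4 DMSO cultures were close together, at 12.0 to 12.3 CPM.

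**Figure D3:**
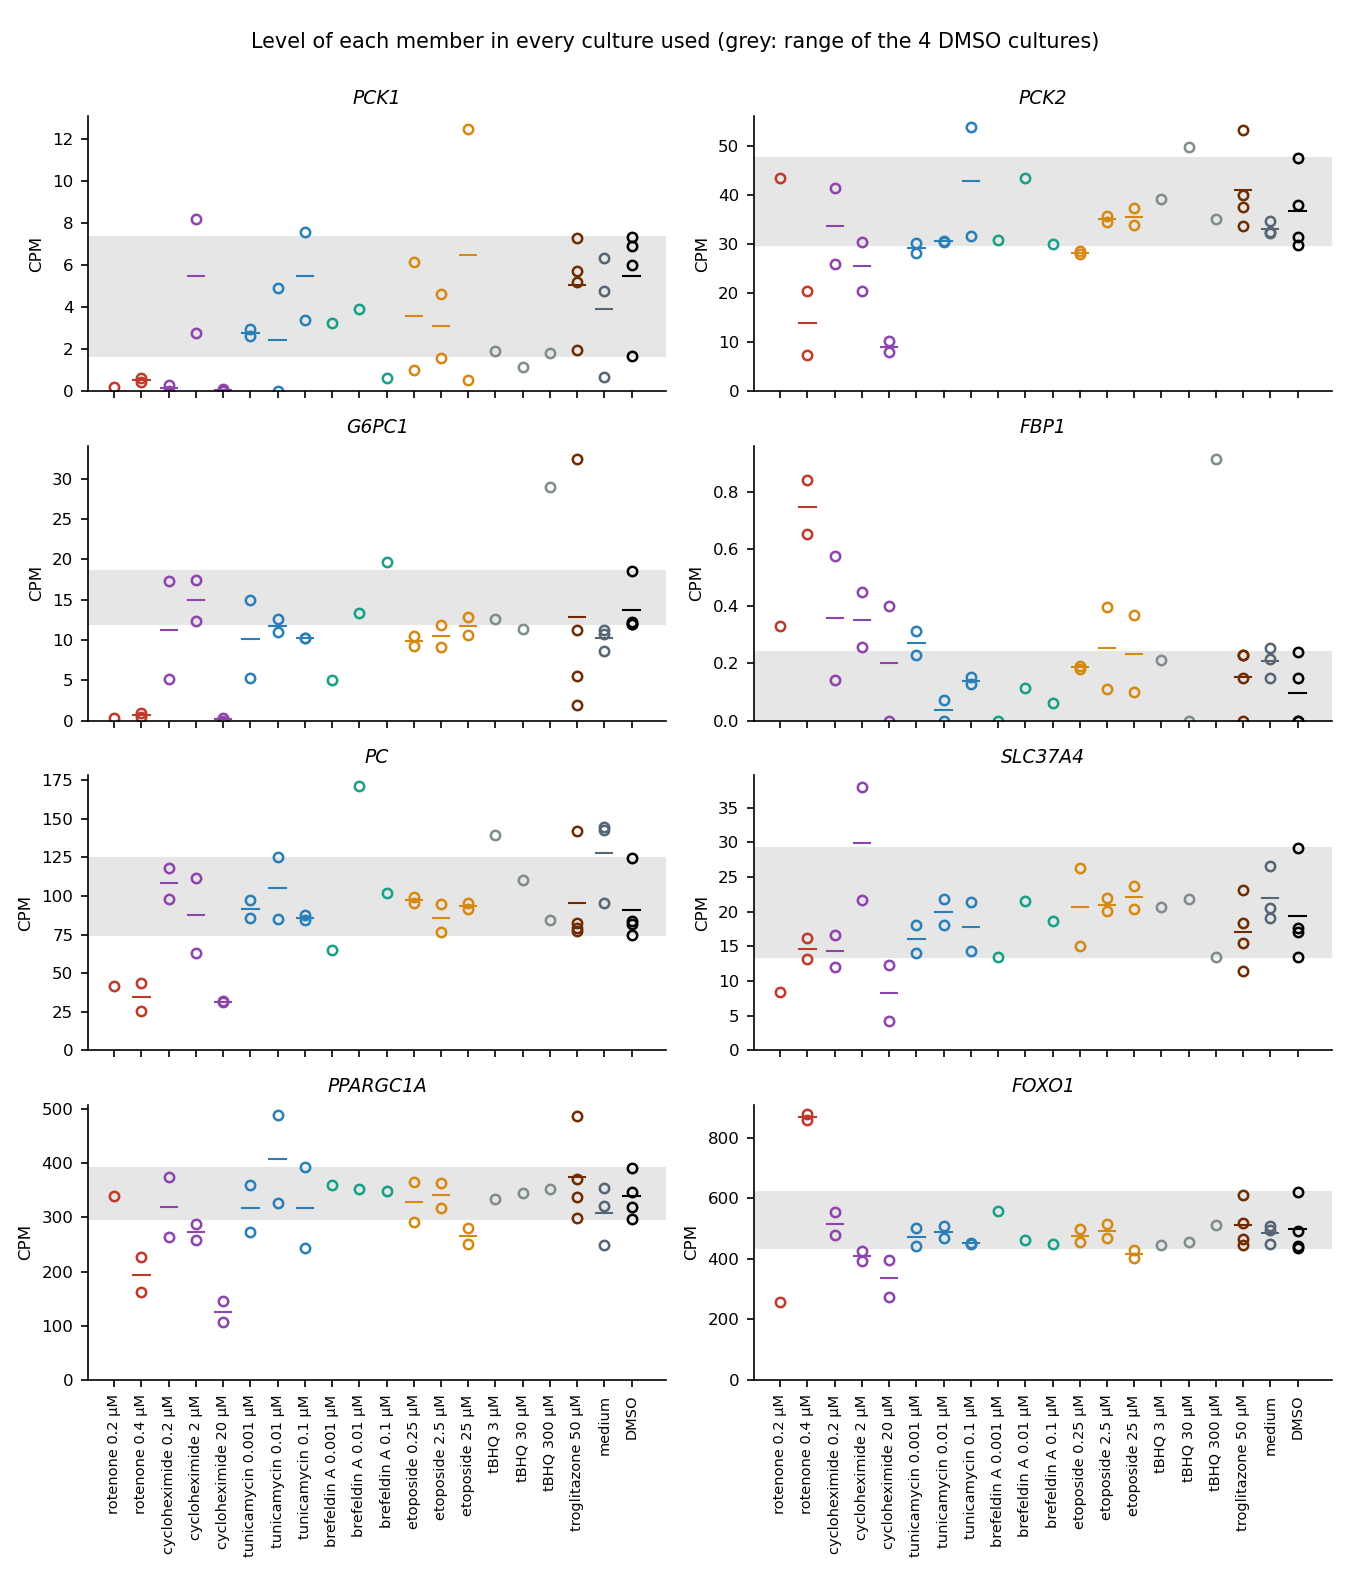
CPM of the 8 members (1 panel each, own y scale) in every culture (points) of 20 conditions (x axis, DMSO last), with a bar at the mean of each condition and a grey band over the range of the 4 DMSO cultures. Rotenone and 20 µM cycloheximide cultures lie below the band for G6PC1, PCK1 and PC, and the cultures at 0.4 µM rotenone (857 and 878 CPM) lie above it for FOXO1.

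Under rotenone the phosphatase and the cytosolic carboxykinase were nearly lost at both doses. G6PC1 was at 0.371 CPM at 0.2 µM and at 0.928 and 0.420 CPM at 0.4 µM, against 12.0, 12.3, 18.6 and 12.0 CPM in DMSO cultures. PCK1 was at 0.185 CPM at 0.2 µM and at 0.629 and 0.420 CPM at 0.4 µM, against 5.98, 7.32, 6.89 and 1.66 CPM in DMSO cultures. No rotenone culture overlapped the DMSO cultures for either gene. At 0.4 µM, edgeR's quasi-likelihood test with Benjamini-Hochberg adjustment over all genes put the log2 fold change at -4.12 for G6PC1 (SE 0.408, adjusted p = 5.58e-06) and at -3.25 for PCK1 (SE 0.564, adjusted p = 0.000339). The second 0.4 µM culture (run 6) rested on 3 UMIs of each gene.

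At 0.2 µM there was 1 culture and so no replicate check. Its ratio to the pooled DMSO UMIs is given with an exact conditional binomial 95% interval, which covers counting error only and takes UMIs as independent, and a gene was called if it differed at least 2-fold, lay outside the DMSO range, and had an interval without 0 and at least 50 UMIs. On the log2 scale G6PC1 differed by -5.44 (-5.96 to -4.96) and PCK1 by -5.07 (-5.84 to -4.39). Of 7 members tested at 0.2 µM, 4 were called, all lower, where 38.5% of 22736 genes were called (13.4% higher and 25.1% lower). At 0.4 µM, 6 of 7 members tested were called by edgeR, 1 higher and 5 lower, where 61.4% of 19831 genes were called (19.1% higher and 42.2% lower), so the number of calls alone does not set the members apart. At 0.4 µM 3794 genes were called higher and 8373 lower, and with TMM scaling, which estimates library size from genes of middling change, 5570 were called higher and 6078 lower.

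PC, the entry enzyme, was lower at both doses. It was at 41.5 CPM at 0.2 µM and at 43.7 and 25.6 CPM at 0.4 µM, against 81.6, 74.9, 125 and 83.6 CPM in DMSO cultures, with no overlap. Its log2 fold change at 0.4 µM was -1.39 (SE 0.286; edgeR adjusted p = 0.00115), and its log2 ratio at 0.2 µM was -1.38 (-1.44 to -1.32). Within run 5, the 0.4 and 0.2 µM cultures differed for PC by a log2 ratio of 0.07 (0.01 to 0.14). PC is over 100 kb long, and at 0.4 µM genes of at least 5 CPM had a median log2 fold change of -1.12 if over 100 kb (3503 genes), -0.22 from 10 to 100 kb (7914 genes) and 0.10 under 10 kb (1664 genes). The part of gene length in the values of PC, PPARGC1A and FOXO1 was not tested.

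PCK2 and SLC37A4 differed between the rotenone doses. PCK2 was at 43.3 CPM at 0.2 µM and at 20.4 and 7.42 CPM at 0.4 µM, against 31.3, 29.9, 47.5 and 38.0 CPM in DMSO cultures. It lay within the DMSO range at the lower dose (log2 ratio 0.05) and below it at the higher dose (log2 fold change -1.36, SE 0.360, edgeR adjusted p = 0.00587). The call at the higher dose was lost with TMM scaling (-0.91, edgeR adjusted p = 0.0517). SLC37A4 was at 8.36 CPM at 0.2 µM and at 16.2 and 13.2 CPM at 0.4 µM, against 17.1, 13.5, 29.3 and 17.6 CPM in DMSO cultures. At 0.2 µM its log2 ratio was -1.55 (-1.67 to -1.42), and at 0.4 µM its log2 fold change of -0.42 (SE 0.311) did not pass the test (edgeR adjusted p = 0.262) and turned positive under other scalings. Within run 5, PCK2 was 2.13-fold lower at 0.4 than at 0.2 µM (counting interval 2.02 to 2.25), and SLC37A4 was 1.94-fold higher. The calls of PC and SLC37A4 at 0.2 µM needed the DMSO culture of run 5, since without it their log2 ratios were -0.96 and -0.99.

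FOXO1 stood below the DMSO cultures at 0.2 µM rotenone and above them at 0.4 µM. It was at 256 CPM at 0.2 µM and at 857 and 878 CPM at 0.4 µM, against 491, 620, 436 and 442 CPM in DMSO cultures. The lower dose was the lowest and the higher dose the highest of all 20 conditions. At 0.4 µM FOXO1 rose by a log2 fold change of 0.80 (SE 0.222; edgeR adjusted p = 0.00744), while the median over all genes tested was -0.56. With TMM scaling, which brought that median to -0.10, its log2 fold change was 1.27, and with DESeq2 size factors, which brought it to -0.05, it was 1.31. At 0.2 µM its log2 ratio of -0.85 (-0.87 to -0.82) was under 2-fold and not called. Within run 5, FOXO1 was 3.35-fold higher at 0.4 than at 0.2 µM, a log2 ratio of 1.74 (1.72 to 1.76), with no replicate of the lower dose. The rise at 0.4 µM was of like size within each run, at log2 ratios of 0.98 in run 5 and 0.99 in run 6.

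The rank by hepatocyte marker RNA separated the doses further. At 0.4 µM in run 5, FOXO1 was at 668, 749, 833 and 1021 CPM from the lowest to the highest bin, and in run 6 at 893, 963, 776 and 910 CPM. At 0.2 µM it was at 292, 241, 246 and 261 CPM. The DMSO culture of run 5 ran from 600 through 526 and 411 to 256 CPM and that of run 6 from 674 through 493 and 387 to 309 CPM. FOXO1 therefore did not decline along the ranking in the rotenone cultures as it did in the DMSO cultures. Among the highest bins, the 0.4 µM cultures were at 1021 and 910 CPM, and the 0.2 µM culture, at 261 CPM, lay between the DMSO cultures of 256 and 309 CPM. After thinning, a FOXO1 UMI was in 94.4% and 90.0% of cells at 0.4 µM and in 65.9% at 0.2 µM, against 80.0% to 90.6% in DMSO cultures.

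**Figure D4:**
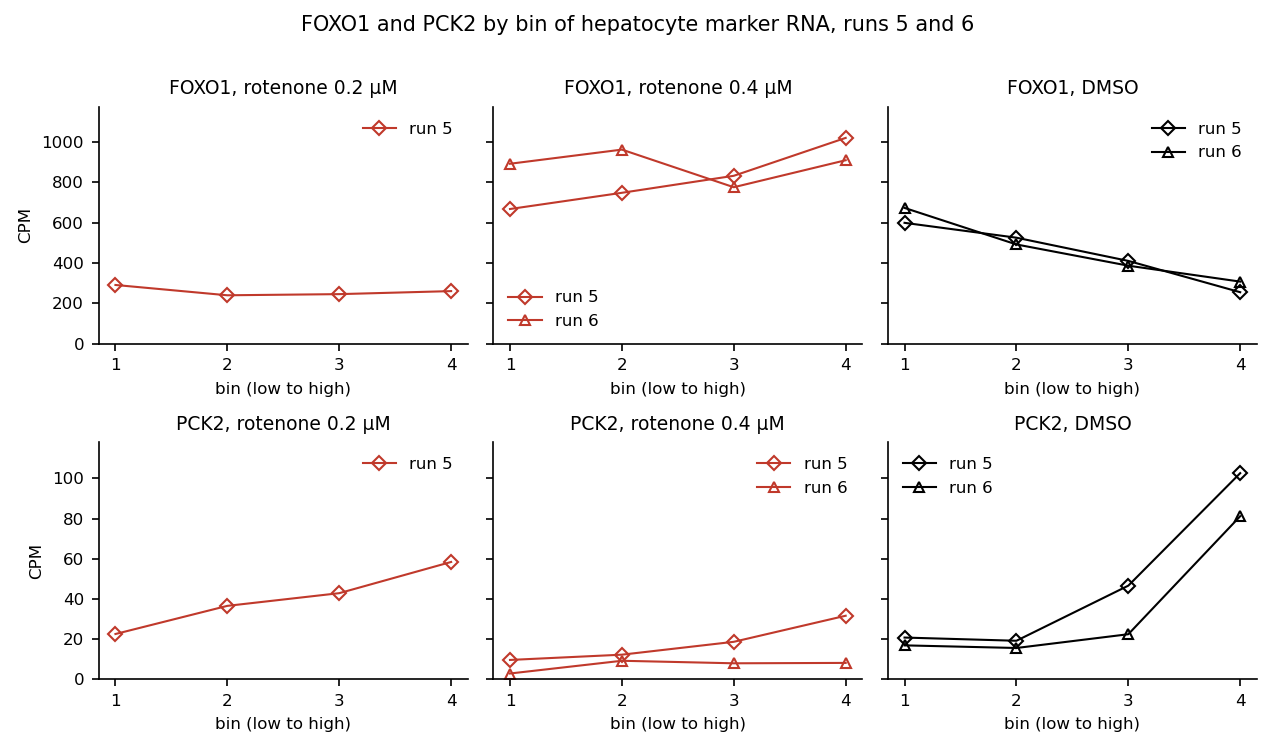
CPM of FOXO1 and PCK2 (y axis) in bins of cells ranked by hepatocyte marker RNA (x axis, lowest to highest) in the rotenone 0.2 µM and 0.4 µM and DMSO cultures of runs 5 and 6. FOXO1 at 0.4 µM (1021 and 910 CPM in the highest bin) lies above the DMSO lines, which fall to 256 and 309 CPM.

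PPARGC1A was at 340 CPM at 0.2 µM rotenone and at 227 and 161 CPM at 0.4 µM, against 298, 391, 320 and 347 CPM in DMSO cultures. The lower dose lay within the DMSO range (log2 ratio 0.08), and both cultures of the higher dose lay below it. At 0.4 µM its log2 fold change was -0.80 (SE 0.229; edgeR adjusted p = 0.00904). This call was lost with TMM scaling (-0.34, adjusted p = 0.172) and with edgeR on DESeq2 size factors (-0.30, adjusted p = 0.269), and without the culture of run 6 (-0.58, adjusted p = 0.0817).

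**Figure D5:**
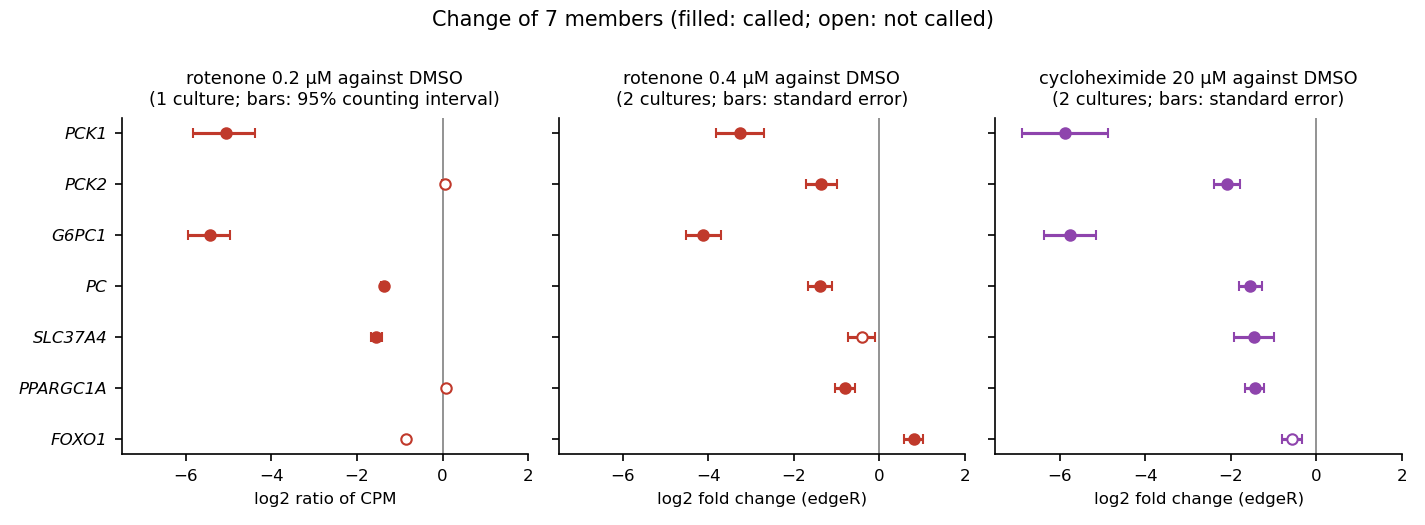
Log2 change against DMSO (x axis) of 7 members (y axis) at 0.2 µM rotenone (ratio with counting interval), 0.4 µM rotenone and 20 µM cycloheximide (fold change with SE), with filled points for called members. G6PC1 and PCK1 were lowest in all 3 conditions, at -5.44 and -5.07 at 0.2 µM rotenone, and FOXO1 is the only member above 0 by a call, at 0.80 at 0.4 µM rotenone.

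Markers of the cell types also moved under rotenone, and their part in the members' values was not tested. The 8 hepatocyte markers summed to 10349 CPM at 0.2 µM and to 17634 and 9131 CPM at 0.4 µM, against 12370, 10169, 16459 and 24826 CPM in DMSO cultures, and the groups overlapped. At 0.2 µM, 4 of the 8 were called lower, with a median log2 ratio of -0.92 over the list and -0.17 over all genes, among them ARG1 (-4.23), TF (-1.36) and HNF4A (-1.34). At 0.4 µM, 2 of the 8 fell, ARG1 (log2 fold change -3.01) and HNF4A (-1.66), with a median of -1.06 over the list, and ARG1 had 0 UMIs in the culture of run 6. The 8 stellate cell or fibroblast markers summed to 65.1 CPM at 0.2 µM and to 53.2 and 51.6 CPM at 0.4 µM, against 120.6, 133.1, 239.5 and 213.5 CPM in DMSO cultures, with no overlap. Of 6 of these tested, 3 were called lower at 0.2 µM (median log2 ratio -1.48) and 5 fell at 0.4 µM (median log2 fold change -1.23), COL3A1 by -3.12 and -3.01 at the rising doses. COL1A2 had 0 UMIs in all 4 DMSO cultures. An alternative chosen after seeing the data was limited to cells with hepatocyte markers at 10000 CPM or more. These were 233 and 32 cells at 0.4 µM, against 110, 36, 157 and 50 in DMSO cultures. In them 6 of 7 members tested were again called, where 10229 of 16626 genes were called (3606 higher and 6623 lower). There the log2 fold changes were -4.52 for G6PC1, -3.83 for PCK1, -1.71 for PCK2, -1.39 for PC, -0.85 for PPARGC1A and 1.23 for FOXO1.

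Mitochondrial RNA differed between these cultures, and its part in the members' values was not tested. The median cell had 18.6% mitochondrial UMIs at 0.2 µM and 15.0% and 20.4% at 0.4 µM, against 15.2%, 2.47%, 16.2% and 12.6% in DMSO cultures before cells were filtered, so the DMSO culture of run 4 stood apart. Without that culture 6 of 7 members tested were again called at 0.4 µM, where 12070 of 20449 genes were called. With cells of at most 10% mitochondrial UMIs, 47 cells of 0.4 µM rotenone in run 5 stood against 30 and 118 cells of DMSO runs 3 and 4. The log2 fold changes there were -3.85 for G6PC1, -3.68 for PCK1, -0.81 for PCK2, -0.30 for PC, -0.65 for PPARGC1A and 0.29 for FOXO1. With 1 rotenone culture in that fit, the spread came from 2 DMSO cultures of other runs alone. The rotenone culture was assumed to vary like them, so calls from that fit are weakly grounded either way.

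The wider pathway did not move as a block at 0.4 µM rotenone. Of 19 shared gluconeogenic and glycolytic enzymes and carriers, 7 rose and 4 fell, with a median log2 fold change of 0.57 beside -0.56 over all genes, of which 19.1% were called higher and 42.2% lower. The same shares stand beside each list count at this dose. Among them were falls of SLC25A13, a mitochondrial aspartate and glutamate carrier (-1.98, SE 0.314), and SLC2A2, the glucose transporter GLUT2 (-1.49, SE 0.390). Of 5 tested genes listed for the opposing steps and their regulation, 3 fell and none rose. The falls were of 2 regulators and 1 enzyme: PFKFB1, a bifunctional regulator of fructose-2,6-bisphosphate (-4.40, SE 0.388), GCKR, the glucokinase regulator (-2.25, SE 0.272), and PKLR, liver pyruvate kinase (-1.51, SE 0.494). Liver genes of both directions of the pathway were therefore among the falls.

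Among 23 tested regulators at 0.4 µM rotenone, 6 rose and 6 fell, with a median log2 fold change of 0.14. NR4A1, a nuclear receptor induced by cyclic AMP, fell (-3.83, SE 0.522), and IRS2, an adaptor of the insulin receptor, and SIK1, a kinase that restrains CREB coactivators, rose (3.83, SE 0.259, and 3.11, SE 0.583). Of 6 listed genes known as FOXO1 targets in liver, 3 rose and none fell. The 3 were IRS2, PDK4, a kinase that shuts pyruvate dehydrogenase (2.01, SE 0.318), and IGFBP1, an insulin-like growth factor binding protein (1.91, SE 0.382). The list leaves out the members PCK1 and G6PC1, which also lie downstream of FOXO1 and which fell at this dose. Of 6 ATF4 pathway genes, set beside PCK2 because ATF4 is known to raise PCK2, 5 rose, with a median of 2.19. At 0.2 µM, where FOXO1 was below the DMSO cultures, 3 of the same 6 FOXO1 targets were called higher and 1 lower, with log2 ratios of 4.06 (3.84 to 4.29) for IGFBP1, 2.15 (2.10 to 2.20) for PDK4 and 1.70 (1.66 to 1.74) for IRS2, and all 6 ATF4 pathway genes were called higher, where 13.4% of all genes were called higher and 25.1% lower. FOXO1 RNA and its listed targets thus did not move in step across the 2 doses.

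Cycloheximide at 20 µM lowered 6 of 7 tested members, where 19.7% of 18706 genes were called (6.52% higher and 13.2% lower, or 1220 and 2474 genes). With DESeq2 size factors these numbers were 1657 and 2177. G6PC1 was at 0.301 and 0 CPM (3 and 0 UMIs), against 12.0 to 18.6 CPM in DMSO cultures, and over pooled UMIs it was 63.5-fold lower, with a counting interval of 21.7 to 309 (edgeR adjusted p = 9.32e-05). PCK1 had 1 UMI in both cultures together, against 338 in DMSO cultures, a ratio 73.9-fold lower with a counting interval of 13.2 to 2928 (edgeR adjusted p = 0.00208). Without the culture of run 3, PCK1 no longer passed edgeR's test (adjusted p = 0.0634). The deepest losses were thus again those of the phosphatase and the cytosolic carboxykinase.

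PCK2 was at 7.92 and 10.2 CPM at 20 µM cycloheximide, against 29.9 to 47.5 CPM in DMSO cultures (log2 fold change -2.08, SE 0.305, edgeR adjusted p = 0.000779). PC was at 32.0 and 31.1 CPM, against 74.9 to 125 CPM (-1.54, SE 0.259, adjusted p = 0.00182 by edgeR). PPARGC1A was at 107 and 145 CPM, against 298 to 391 CPM (-1.43, SE 0.223, adjusted p = 0.00113 by edgeR). For these genes neither culture overlapped the DMSO cultures. SLC37A4 was at 4.21 and 12.3 CPM, against 13.5 to 29.3 CPM, and its call (-1.45, SE 0.469, edgeR adjusted p = 0.0473) was lost without the culture of run 3 (-0.68, adjusted p = 0.391), without the DMSO culture of run 4 (-1.58, adjusted p = 0.0576) and under other settings. FOXO1 was at 397 and 275 CPM, against 436 to 620 CPM, below the DMSO range in both cultures but without a call (-0.56, SE 0.235, edgeR adjusted p = 0.119).

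Hepatocyte RNA as a whole fell with the members at 20 µM cycloheximide. The 8 hepatocyte markers all fell and summed to 2669 and 6172 CPM, against 10169 to 24826 CPM in DMSO cultures, with a median log2 fold change of -2.89, and ARG1 had 0 UMIs in the culture of run 4. Too few cells with high hepatocyte marker RNA were left (4 and 8) to repeat the test within them, so a loss of hepatocyte-like cells and a loss of these RNAs within them cannot be told apart. Of the 19 shared enzymes and carriers 1 rose and 4 fell, among them SLC2A2 (-3.61, SE 0.479). Of 5 genes listed for the opposing steps and their regulation 3 fell, with PKLR at -5.20 (SE 0.894). Of 22 regulators 2 rose and 6 fell, among them GCGR, the glucagon receptor (-3.75, SE 0.943), CREB3L3, a liver ER-bound transcription factor (-3.03, SE 0.543), and CEBPA (-2.64, SE 0.749). Of the 6 FOXO1 targets 4 fell and 1 rose, with MTTP, which loads lipid onto apolipoprotein B, at -3.90 (SE 0.337). These medians and counts stand beside a median of -0.12 over all genes, of which 6.52% were called higher and 13.2% lower.

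No member passed edgeR's test without a block at 0.2 or 2 µM cycloheximide, at any dose of tunicamycin or etoposide, with 50 µM troglitazone or in medium. With run as a block, PCK1 was called by edgeR at 0.2 µM cycloheximide (log2 fold change -4.74, adjusted p = 7.37e-07) and at 0.001 µM tunicamycin (-1.20, adjusted p = 0.0142). Without the filter on low counts it was called at 0.2 µM cycloheximide (-4.57, edgeR adjusted p = 1.36e-05). With the block, 176 of 18012 genes were called at 0.2 µM cycloheximide and 321 of 22539 at 0.001 µM tunicamycin. Without the filter, 72 of 38703 were called at 0.2 µM cycloheximide. With the filter and without a block, the share of all genes called was 0% at 0.2 µM and 0.00502% at 2 µM cycloheximide. It was 0.00538% at 0.1 µM tunicamycin, 0.078% with troglitazone and 0% in the rest. DESeq2 called no member in these comparisons either. At an unadjusted p under 0.05 edgeR gave PCK1 at 0.2 µM cycloheximide, PCK1 at 0.001 µM tunicamycin and PC in medium. PCK1 had 2 and 0 UMIs at 0.2 µM cycloheximide, a pooled ratio 27.5-fold lower than in DMSO cultures with a counting interval of 7.55 to 228, while G6PC1 in the same cultures was at 17.3 and 5.17 CPM. At 2 µM cycloheximide PCK1 was back at 2.75 and 8.19 CPM, so its levels did not follow the dose. PC in medium was at 145, 95.6 and 143 CPM, against 74.9 to 125 CPM in DMSO cultures (log2 fold change 0.47, SE 0.202, edgeR adjusted p = 0.998).

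The highest PCK1 level rested in large part on 1 cell. At 25 µM etoposide PCK1 was at 12.5 CPM in run 3, the highest of all cultures, and at 0.507 CPM in run 4. The run 3 level came from 126 UMIs in 14 of 208 cells, of which 1 cell held 66 (52.4%). Under troglitazone G6PC1 was at 1.91, 5.57, 11.2 and 32.5 CPM in runs 3, 4, 5 and 6, a wider spread than in the DMSO cultures of the same runs, and hepatocyte markers summed to 7892, 5024, 18514 and 21813 CPM in these cultures. The part of the marker level in this spread was not tested. Of the 6 FOXO1 targets, PDK4, which is also a PPAR target, rose with troglitazone (log2 fold change 1.16, SE 0.125, edgeR adjusted p = 0.00259).

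Brefeldin A and tBHQ had 1 culture for each dose, all of run 4, and few members were called. The median cell of the DMSO culture of run 4 had 2.47% mitochondrial UMIs before filtering. At the rising doses it was 15.1%, 18.8% and 19.1% with brefeldin A and 19.0%, 16.7% and 20.2% with tBHQ. The part of this difference in comparisons within the run was not tested. The share of all genes called was 4.18%, 4.59% and 1.85% at 0.001, 0.01 and 0.1 µM brefeldin A and 3.75%, 3.75% and 4.54% at 3, 30 and 300 µM tBHQ. G6PC1 was at 5.01, 13.4 and 19.6 CPM over the rising doses of brefeldin A, and was called lower at 0.001 µM (log2 ratio -1.68, -2.15 to -1.25). PCK1 was at 3.23, 3.92 and 0.625 CPM over the same doses and was called lower at 0.1 µM (-3.32, -4.39 to -2.42). PC was at 65.1, 171 and 102 CPM, the 171 CPM at 0.01 µM being the highest of all 38 cultures, under 2-fold above pooled DMSO (log2 ratio 0.66), of whose UMIs run 5 gave most. It was called higher against the DMSO culture of its own run (log2 ratio 1.19, 1.00 to 1.39) and without the DMSO culture of run 5 (1.08). PCK1 at 0.1 µM, with 10 against 25 UMIs, was under the minimum of 50 UMIs for a call against the DMSO culture of its own run (log2 ratio -3.55).

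With tBHQ, PCK1 was at 1.90, 1.13 and 1.83 CPM at 3, 30 and 300 µM, and was called lower at 30 µM, where all 3 of its UMIs came from 1 of 52 cells (log2 ratio -2.46, -4.75 to -0.90). G6PC1 was at 12.6, 11.3 and 29.0 CPM, and its log2 ratio at 300 µM was 0.85 (0.53 to 1.16), under 2-fold and not called. It was called higher there against the DMSO culture of the same run (log2 ratio 1.24, 0.70 to 1.80), against DMSO cultures of equal weight (1.08) and without the DMSO culture of run 5 (1.26), whereas with all cells it was 0.18 and not called. There 95 UMIs came from 11 of 56 cells, and 1 cell held 34 of them (35.8%). Over the 6 cultures of both chemicals, log2 ratios to pooled DMSO lay between -0.05 and 0.27 for FOXO1 and between 0.06 and 0.16 for PPARGC1A. All 6 were below the DMSO culture of their own run. FOXO1 was at 446 to 556 CPM against 620 CPM there, and PPARGC1A at 334 to 360 CPM against 391 CPM.

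FBP1 RNA was scarce everywhere, with 206 UMIs in all 38 cultures, of which 25 had 3 UMIs or fewer. It failed the filter on low counts and was in none of the tests above. It had 32 UMIs (0.330 CPM) at 0.2 µM rotenone and 61 and 6 UMIs (0.651 and 0.840 CPM) at 0.4 µM, against 3, 0, 5 and 0 UMIs in DMSO cultures, where 0.239 CPM was the highest level. Without the filter, edgeR gave a log2 fold change of 2.27 at 0.4 µM (SE 0.775, adjusted p = 0.0123). This rests on 67 against 8 UMIs, and a level near 0 is not well measured at the depth of the DMSO cultures. These held 3417334 to 33404488 UMIs, against 93754929 (run 5) and 7146777 (run 6) at 0.4 µM rotenone.

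Members could be set beside all other genes by their pattern over the 38 cultures, as Pearson's r of log2(CPM + 1) with each of 13316 genes of at least 5 CPM on average. The cultures share controls, runs and depth, so these values are a description. G6PC1 was most like GBP7 (0.89), BDH1 (0.89) and NR1I2 (0.89), PC like SPON2 (0.92), SARDH (0.91) and ENSG00000243696 (0.91), and PCK2 like SNED1 (0.90), CYP46A1 (0.87) and ALDH1L1 (0.87). SLC37A4 was most like ZNF710-AS1 (0.86), HYAL1 (0.85) and AGT (0.85), PPARGC1A like ABCA5 (0.91), SULT1C2 (0.90) and RNF180 (0.90), and FOXO1 like DOCK4 (0.91), GFOD1 (0.89) and CADM2 (0.86). PCK1 had no gene above 0.68 (TLCD4, then UGT1A1 at 0.67 and ENSG00000286152 at 0.66). No member was among the 3 genes most like another member, but PCK1 and FBP1 averaged under 5 CPM and so could not be.

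Each sublibrary held other cells of the same DMSO cultures, so their spread includes the sampling of cells. Over 8 sublibraries FOXO1 ranged between 437 and 477 CPM, PC between 93.8 and 118 CPM, PPARGC1A between 285 and 354 CPM, PCK2 between 33.0 and 47.8 CPM and SLC37A4 between 20.4 and 28.1 CPM. G6PC1 ranged between 6.77 and 28.8 CPM and PCK1 between 2.98 and 10.4 CPM, which is the wider spread of RNAs held by few cells.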

How the data were processed

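The matrix deposited by the authors holds UMI counts per gene and cell, unnormalised, made from Parse Evercode reads on GRCh38 per the submitters' processing notes. For pipeline version and annotation, no statement was found in the sources used here. The deposited cell table gives each cell's barcode and sample name, and the gene table pairs gene IDs with symbols. The 8 deposited samples are sublibraries, and 0 columns of per-sample values were left unused. Of 62703 gene IDs, 62625 matched GENCODE 44.

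Kept UMIs were summed per culture. Treatments with 2 or more cultures were tested against 4 DMSO cultures with edgeR 4.0.16 (glmQLFit and glmQLFTest, library size equal to the total count, genes kept by filterByExpr, Benjamini-Hochberg adjusted p of 0.05), and log2 ratios with exact intervals were computed for 1 culture. The test was tried on simulated counts. Shares of cells used UMIs thinned to 5000 per cell (fixed seed), and intervals cover counting error only. Alternatives were other scalings (TMM, DESeq2 size factors, no mitochondrial genes), DESeq2 1.42.0, other cell and gene filters, each culture left out, run as a block, and 1 fit over all cultures. Members and gene lists were chosen with earlier results of these data known, as was the rule to name every member, up to 3 called genes of a list with the largest change in a comparison, and the 3 genes most like each member. One gene that this rule names is not reported here. Cells at 10000 CPM or more of hepatocyte markers were added after seeing the data. Tools were R 4.3.3, limma 3.58.1, Python 3.11.15, numpy 2.4.6, pandas 2.3.3, scipy 1.17.1 and matplotlib 3.10.9. Troglitazone is named at the dose of the cell table, which is above the doses listed in the treatment protocol.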

Additional observations from a re-analysis of the deposited data

Results flagged for a closer look

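In 2 of 16 groups of at least 4 cultures, the value of 1 culture stood apart by Dixon's measure, the gap to its nearest neighbour divided by the range of the group, and chance flags about 1 group in 20. For PC in the troglitazone cultures the gap was 0.926 of the range, with 142.5 CPM in run 4 against 77.5 to 82.3 CPM in the other 3 cultures. For G6PC1 in the DMSO cultures it was 0.960, with 18.6 CPM in run 5 against 12.0 to 12.3 CPM in the rest.

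In 4 cases a member lay above every DMSO culture at 1 dose of a chemical and below every DMSO culture at another, and these differences were not tested. G6PC1 was at 19.6 CPM at 0.1 µM and 5.01 CPM at 0.001 µM brefeldin A, and at 29.0 CPM at 300 µM and 11.3 CPM at 30 µM tBHQ, against 12.0 to 18.6 CPM in DMSO cultures. PC was at 171 CPM at 0.01 µM and 65.1 CPM at 0.001 µM brefeldin A, against 74.9 to 125 CPM. FOXO1 was at 857 and 878 CPM at 0.4 µM and 256 CPM at 0.2 µM rotenone, against 436 to 620 CPM. Except for 0.4 µM rotenone, each of these doses had 1 culture.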

How the results depend on the processing

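With TMM, DESeq2 size factors, DESeq2 or cells of at most 10% mitochondrial UMIs, the log2 fold change of SLC37A4 at 0.4 µM rotenone was 0.033, 0.097, 0.097 and 0.66 instead of -0.42, and passed the test in none of 16 settings. The cause was not tested. With cells of at most 10% mitochondrial UMIs, the fit at 0.4 µM rotenone had 1 rotenone culture. There the log2 fold changes of PCK2 (-0.81), PC (-0.30) and FOXO1 (0.29) were nearer to no change, and that of PCK1 was further from it. Where 1 treated culture is left, it is assumed to vary like the DMSO cultures. At 0.4 µM rotenone G6PC1 and PCK1 were called in all 16 settings, FOXO1 in 15, PC in 15, PCK2 in 14 and PPARGC1A in 10. At 20 µM cycloheximide G6PC1, PCK2, PC and PPARGC1A were called in all 14 settings, PCK1 in 13, SLC37A4 in 5 and FOXO1 in 1.

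In treatments with 1 culture, the number of members called was 2 at 0.2 µM rotenone without DMSO replicate 4 (2 to 4 over the DMSO cultures left out, against 4 with all). Against the DMSO culture of the same run, it was 2, 1 and 0 instead of 1, 0 and 1 at 0.001, 0.01 and 0.1 µM brefeldin A, and 0 and 1 instead of 1 and 0 at 30 and 300 µM tBHQ; the 2 losses are of PCK1, which there had under the 50 UMIs a call needs. It was 1 instead of 0 at 3 and at 300 µM tBHQ with all cells, both called lower. With equal weights of the DMSO cultures it was 1 at 300 µM tBHQ, called higher. Leaving out 1 DMSO culture gave 1 to 2 at 0.001 µM brefeldin A and 0 to 1 at 3 µM tBHQ, all lower, and 0 to 1, higher, at 0.01 µM brefeldin A. At 300 µM tBHQ it gave 0 to 1, higher without DMSO replicate 4 and lower without DMSO replicate 5. Without the filter on low counts, 1 member (PCK1) instead of 0 was called at 0.2 µM cycloheximide.

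With run as a replicate block, 1 member (PCK1) instead of 0 was called at 0.2 µM cycloheximide and at 0.001 µM tunicamycin, and 5 instead of 6 at 0.4 µM rotenone (PPARGC1A lost, adjusted p = 0.0644 by edgeR) and at 20 µM cycloheximide (SLC37A4 lost). The runs were not shown to pair the cultures: with 3 or more shared runs, over 4 shared runs of troglitazone and DMSO the correlations of deviations were 0.45, 0.54, 0.01 and 0.50, and over 3 of medium and DMSO 0.51, -0.16 and 0.14. The other 10 comparisons share 2 runs, too few to decide, with correlations between -0.29 and 0.55. Both were positive at 0.2 µM cycloheximide (0.22 and 0.53), at 0.001 µM tunicamycin (0.55 and 0.46), at 0.01 and 0.1 µM tunicamycin and at 0.25 and 2.5 µM etoposide (0.22 to 0.49), and both were negative at 0.4 µM rotenone (-0.23 and -0.16).

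Over all genes, in the 9 comparisons with at most 1 gene called, DESeq2 called 0 to 92 genes, edgeR without the filter on low counts 11 to 241 and the replicate block 0 to 321. At 25 µM etoposide, with 0 genes, 57 were called without DMSO replicate 2. For troglitazone, with 14 genes, DESeq2 called 63, no filter 33, the block 25, 1 fit over all cultures 32 and cells of at most 10% mitochondrial UMIs 1, and 8 to 17 were called with 1 culture left out. At 20 µM cycloheximide, with 3694, the block called 1840 and the fit without the culture of run 3 called 1928. At 0.4 µM rotenone, with 12167, cells of at most 10% mitochondrial UMIs gave 6621. Against the DMSO culture of the same run, 1495, 846 and 1562 instead of 910, 375 and 743 genes were called at 0.01 and 0.1 µM brefeldin A and 3 µM tBHQ. Without DMSO replicate 4, 332 instead of 827 were called at 0.001 µM and 1474 at 0.01 µM brefeldin A. The split of calls into higher and lower was 284 and 422 instead of 217 and 526 at 3 µM tBHQ with TMM scaling, and 153 and 216 instead of 115 and 260 at 0.1 µM brefeldin A with library sizes without mitochondrially encoded genes.

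Over all fits, 185 of 210 log2 fold changes kept their direction and side of the threshold, 20 lost a call, 1 gained it and 4 reversed. The fit with at most 10% mitochondrial UMIs was not run for cycloheximide at 2 and 20 µM, etoposide at 0.25 and 25 µM and the treatments with 1 culture, which had too few such cells. Depth limits FBP1 and PCK1 most: a culture with 3 UMIs or fewer was found for FBP1 in 25 and for PCK1 in 8 of 38 cultures.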
